A study of Mus musculus with 18 samples.

Results

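RNA levels of 9 cytokine genes (Il1b, Tnf, Il6, Il12b, Il23a, Il10, Il15, Il18 and Ebi3) were compared in conventional dendritic cells (cDC) of mouse spleen with and without ADAM10, a membrane protease that cuts surface proteins off cells. The members were chosen by gene name in both deposited tables, and all 9 of 9 were found among 24590 gene names. The 18 libraries came from C57BL/6 mice and form 6 groups of 3, namely ADAM10 KO CD4+ cells, ADAM10 KO CD4- cells, ADAM10 KO CD8+ cells, WT CD4+ cells, WT CD4- cells and WT CD8+ cells. All were sorted as living cells with CD11c and MHC class II. CD4+ cells and CD4- cells, which also lack CD8, are cDC2, and CD8+ cells are cDC1. The labels give no treatment, age or sex, and do not say in which cells, by which means or in which part of the gene ADAM10 was removed. They number the libraries 1 to 3 without saying that these are separate mice, so p-values measure the spread between libraries, which may be technical in part.

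Dendritic cells shape T cell and natural killer (NK) cell responses through the cytokines they secrete. IL-1β and IL-18 are made as inactive precursors that caspase-1 cuts, TNF is made on the cell surface and released mainly by the protease ADAM17, and IL-15 is shown to NK and T cells bound to its receptor chain. IL-12, IL-23 and IL-27 are pairs of chains, so that Il12b encodes a chain of both IL-12 and IL-23, and Ebi3 a chain of IL-27. Several of these genes are switched on by NF-kB and AP-1 factors downstream of pattern recognition receptors, and RNAs such as Tnf and Il6 are short-lived. RNA levels, measured here, do not show how much protein is made or released.

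Library totals were 12358884 to 19557469 estimated counts. Adam10 itself was lower in KO cells of each population, at 43.1 ± 2.41 CPM (counts relative to the TMM-scaled library total) in KO against 97.6 ± 27.6 CPM in WT CD4+ cells, 44.6 ± 2.89 against 105.9 ± 28.2 CPM in CD4- cells, and 32.0 ± 3.98 against 71.4 ± 23.9 CPM in CD8+ cells (SD, n = 3 each). The markers of the sort went with the labels, as Cd8a averaged 115 TPM (a level that accounts for transcript length) in KO CD8+ and 235 TPM in WT CD8+ cells and at most 1.40 TPM elsewhere, and Cd4 at least 293 TPM in CD4+ cells and at most 3.95 TPM elsewhere. Other markers moved with genotype. The summed level of 7 NK cell markers was 11.7 to 29.3 TPM in KO CD4- libraries and 115 to 327 TPM in WT CD4- libraries, and all 7 fell. The sum of 7 T cell markers was 6.91 to 24.6 TPM in KO and 93.2 to 170 TPM in WT CD4- libraries, and all 7 fell too. The sum of 7 monocyte markers was 360 to 461 TPM in KO and 128 to 145 TPM in WT CD4+ libraries, where all 6 tested markers rose and Vcan was at 0 in WT. Red pulp macrophage markers also rose there (6 of 8, and 1 fell), with a sum of 331 to 387 TPM in KO and 269 to 292 TPM in WT CD4+ libraries. In CD4- cells the monocyte sum was 499 to 600 TPM in KO and 265 to 293 TPM in WT libraries, and 4 of 6 rose. In CD8+ cells the sum of 6 cDC2 markers was 7.79 to 10.8 TPM in KO and 29.9 to 51.6 TPM in WT libraries, and 4 of 6 fell. The sum of 5 markers of plasmacytoid dendritic cells (pDC) was 98.8 to 128 TPM in KO and 169 to 215 TPM in WT CD8+ libraries (4 of 5 fell), and that of the 7 NK cell markers 0.591 to 2.55 TPM in KO and 2.66 to 33.4 TPM in WT CD8+ libraries (4 of 7 fell). The pDC sum was 203 to 245 TPM in KO and 140 to 161 TPM in WT CD4+ libraries, and 246 to 289 TPM in KO and 179 to 209 TPM in WT CD4- libraries, with 3 of 5 markers higher in each. The sum of 6 markers shared by all cDC (pan-cDC) was 31580 to 33810 TPM in KO CD4+ libraries, where 4 rose and 1 fell. WT CD4+ libraries had 22040 to 22890 TPM. In CD4- cells this sum was 27760 to 30300 TPM in KO and 18790 to 22670 TPM in WT libraries, and 4 rose. Of 7 cDC1 markers, 3 rose in KO CD4+ and 4 in KO CD4- cells and 0 fell, beside 18.5% and 14.6% of all genes higher. Of all genes, 16.6% fell in KO CD4+ and 11.4% in KO CD4- cells, and in KO CD8+ cells 7.06% rose and 8.71% fell. These shares stand beside all marker counts of this paragraph. The sum of 5 stromal and endothelial markers was lower in KO than in WT libraries of each population. In CD8+ cells it was 2.75 to 3.385 TPM in KO and 9.72 to 13.9 TPM in WT libraries (2 of 3 tested fell). The sum of 6 B cell markers there was 2.87 to 4.60 TPM in KO and 10.0 to 15.2 TPM in WT libraries (2 of 6 fell). That of 4 erythroid markers was 33.7 to 79.2 TPM in KO and 13.7 to 22.1 TPM in WT CD8+ libraries (1 of 3 tested rose). In bulk samples such as these, fewer cells of a type and less RNA per cell cannot be told apart.

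The 9 genes spanned a wide range of levels per length. Il1b was the most abundant, with group means of 117 to 815 TPM, and Il15 (14.5 to 68.2 TPM), Il18 (12.8 to 29.2 TPM) and Ebi3 (13.5 to 17.2 TPM) were well above 1 TPM in every group. Tnf ranged from 1.01 TPM in KO CD8+ cells to 15.0 TPM in WT CD4+ cells, and Il12b from 0.687 TPM in KO CD4+ cells to 23.8 TPM in WT CD8+ cells. With near zero taken as a group mean under 1 TPM, Il23a and Il10 were near zero in all 6 groups, Il6 in KO and WT CD8+ cells (0.368 and 0.983 TPM), and Il12b in KO CD4+ cells alone. The plot of the 9 genes in every library shows these levels as CPM, the scale used for comparing groups below.

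**Figure D1:**
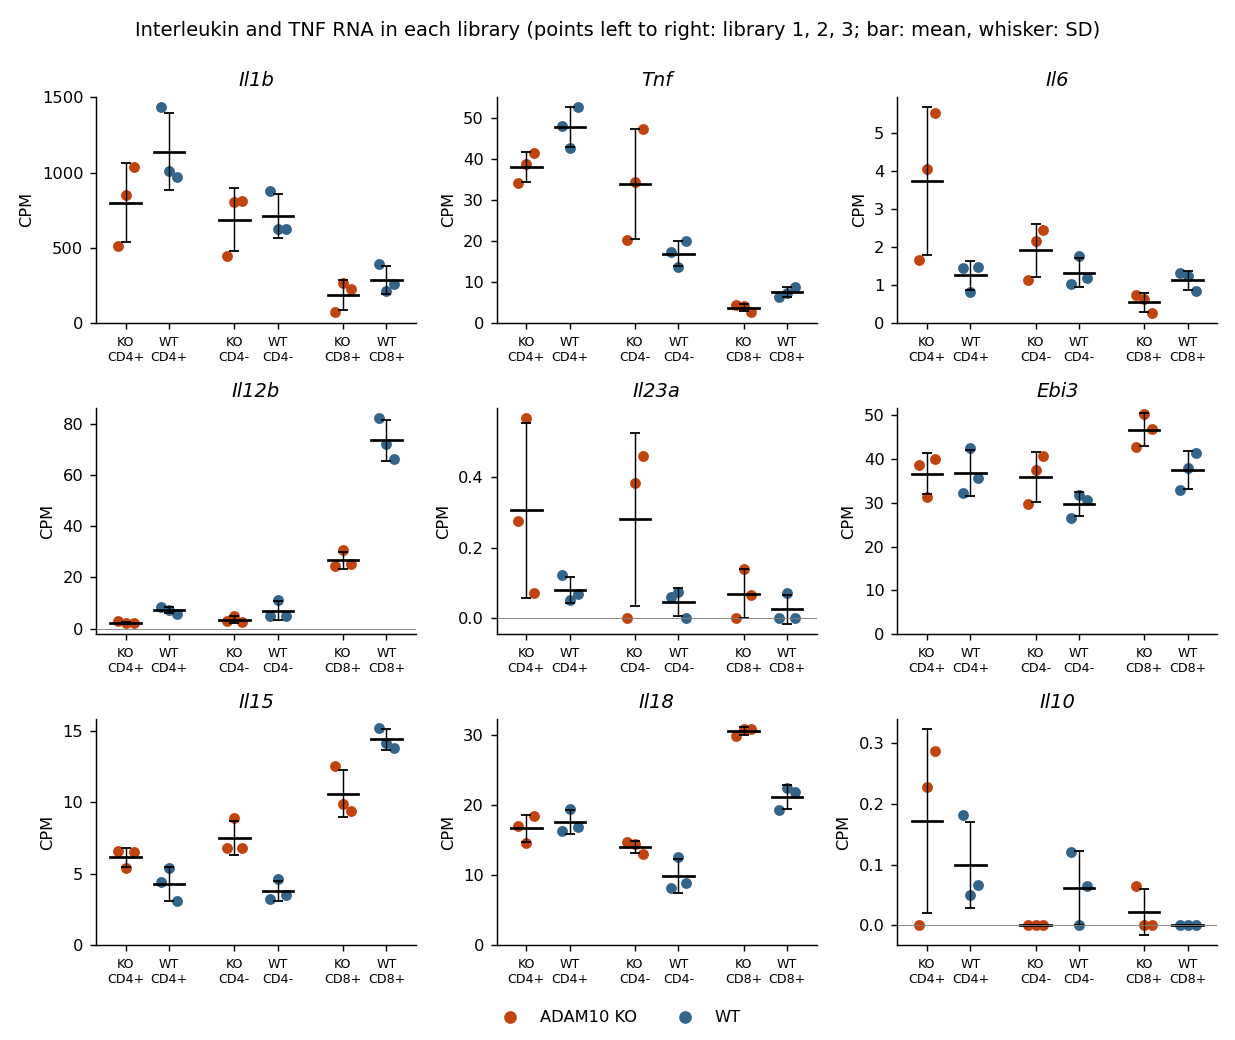
CPM (TMM-scaled, linear axis) of the 9 genes in each of 18 libraries, by genotype and population, with points left to right for libraries 1 to 3, a bar for the mean and a whisker for the SD. Il1b reaches 1437 CPM while Il23a and Il10 stay below 0.6 CPM, and all 3 WT CD8+ libraries lie above every other library for Il12b.

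A gene was called changed at an adjusted p under 0.05 in edgeR's quasi-likelihood test with Benjamini-Hochberg adjustment over 13369 genes, which included 7 of the 9 members (Il23a and Il10 had too few counts). In KO against WT CD4+ cells, 1 of the 7 rose and 1 fell, beside 35.1% of all genes called in this comparison (18.5% higher and 16.6% lower). In CD4- cells 3 rose and 1 fell, beside 26.0% of all genes called (14.6% higher and 11.4% lower). In CD8+ cells 1 rose and 2 fell, beside 15.8% (7.06% higher and 8.71% lower). The members' median log2 fold change was -0.08, 0.51 and -0.61 in CD4+, CD4- and CD8+ cells, and that of all genes tested 0.02, 0.02 and 0.00. KO and WT libraries did not overlap in CPM for 3, 3 and 6 of the 7 members in the same order of populations, beside 46.7%, 42.2% and 29.6% of all genes. Il12b was the only member called in all 3 populations, and Il1b and Ebi3 were called in none. Within genotypes all 18 same-numbered pairs of libraries correlated best with their own number. The 3 populations may thus not be independent of each other.

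**Figure D2:**
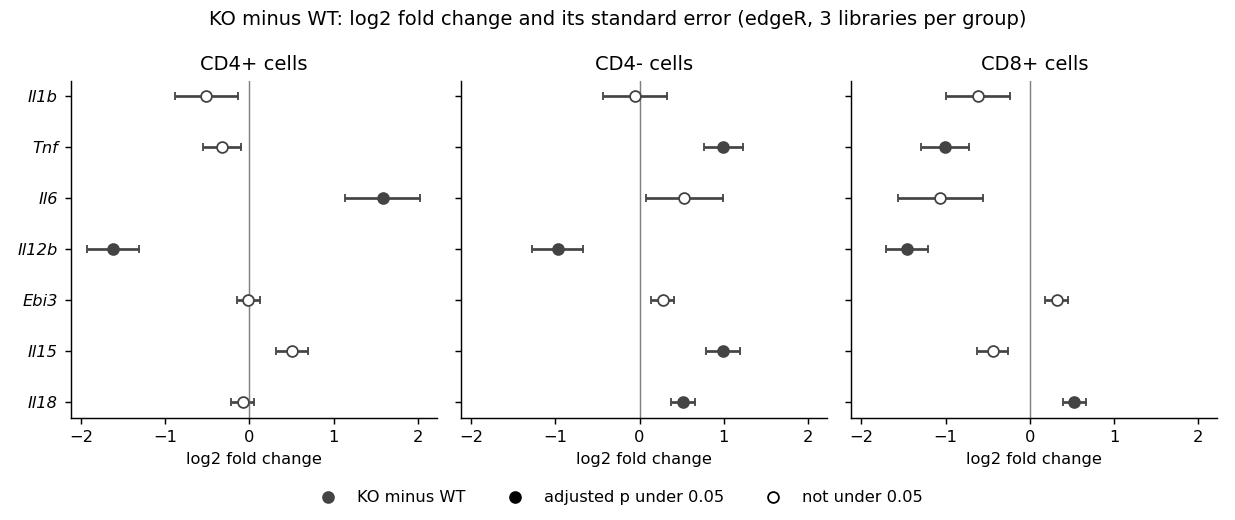
Log2 fold change of KO over WT cells for the 7 tested genes in each population, as points with their standard errors (edgeR, 3 libraries per group), filled where the adjusted p was under 0.05. Il12b lies left of 0 in every panel (-1.61, -0.97 and -1.46), while Tnf lies right of 0 in CD4- cells (0.995) and left of it in CD8+ cells (-1.01).

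Il12b encodes p40, the chain that IL-12 and IL-23 share, and CD8+ cDC1 are known as a main source of IL-12 in mice. Its GRCm38 position is chromosome 11, 44400063 to 44414033, plus strand. In CD8+ cells it had 24.6, 30.6 and 25.2 CPM in KO libraries and 82.3, 72.4 and 66.4 CPM in WT libraries. Every KO CD8+ library was thus far below every WT CD8+ library. The gene fell by 1.46 ± 0.25 on the log2 scale (SE, adjusted p = 0.000544, edgeR's quasi-likelihood test), a 2.75-fold lower level in KO cells. The sum of 7 cDC1 markers was 1090 to 1194 TPM in KO CD8+ and 1089 to 1271 TPM in WT CD8+ libraries. Of these 7, 1 was called higher and 1 lower, beside 7.06% and 8.71% of all genes, and Cd8a averaged less in KO, as given above. The cDC2, pDC and NK cell markers fell in KO CD8+ cells, also as given above. The part of these marker shifts in the fall of Il12b was not tested. Il12b had 2.88, 2.05 and 2.08 CPM in KO CD4+ libraries and 8.28, 7.41 and 5.87 CPM in WT CD4+ libraries, again without overlap. It fell there by 1.61 ± 0.31 (adjusted p = 0.000596), 3.06-fold. CD4- cells had 2.91, 5.14 and 2.68 CPM in KO libraries and 4.89, 11.3 and 4.99 CPM in WT libraries. Here the highest KO library overlapped the lower WT libraries, and WT library 2 stood above all others. The fall of 0.97 ± 0.30 (adjusted p = 0.0252) was no longer called without WT CD4- library 2 (log2 change -0.50, adjusted p = 0.164), without KO CD4- library 1 (adjusted p = 0.1002) or without KO CD4- library 3 (adjusted p = 0.103).

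The falls of Il12b in different populations were not shown to differ in size. The KO effect in CD4+ cells was -0.15 ± 0.39 relative to that in CD8+ cells (adjusted p = 0.840), and the effect in CD4- cells was 0.49 ± 0.39 relative to CD8+ cells (adjusted p = 0.493), although without WT CD4- library 2 this difference was 0.97 and was called (adjusted p = 0.0497). Nearly all of the RNA was assigned to the transcript Il12b-201 (1861 bases, 8 exons), with a median share of 100% of the gene's counts and a lowest of 61.8% in a library. Transcripts of both other chains that pair with p40 were scarce. Il12a, the p35 chain of IL-12, averaged 0.0201 to 0.0757 TPM over the 6 groups, with at most 4 counts in a library. Il23a, the p19 chain of IL-23, is described further on. The 250 bases before the RefSeq start of Il12b (chr11:44399813-44400062, plus strand, GRCm38.p6, from RefSeq) are shown because this gene fell in each population. They were searched on both strands for the NF-kB consensus, the AP-1 letters TGANTCA, and the interferon-response letters GAAA and GAAA with 2 bases of any kind between them, and held none of these. Only full matches to these patterns were counted, so the search does not show that binding sites are absent. Of 32851 RefSeq windows of the same length, 3.90% held the NF-kB consensus, 6.75% the AP-1 letters and 2.98% the interferon-response letters.
Il12b: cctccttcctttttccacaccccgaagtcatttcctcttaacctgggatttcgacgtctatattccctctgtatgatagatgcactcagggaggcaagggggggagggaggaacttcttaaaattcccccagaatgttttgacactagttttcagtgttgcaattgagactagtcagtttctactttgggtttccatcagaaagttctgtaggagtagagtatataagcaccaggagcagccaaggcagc

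Il23a (minus strand of chromosome 10, 128296139 to 128298752) had 37 counts in all 18 libraries together and 5 libraries at 0. Its counts were 5, 10 and 1 in KO CD4+ libraries and 2, 1 and 1 in WT CD4+ libraries. They were 0, 5 and 6 in KO CD4- libraries and 1, 1 and 0 in WT CD4- libraries, and 0, 2 and 1 in KO CD8+ against 0, 1 and 0 in WT CD8+ libraries. The highest counts lay in KO cDC2 libraries, but each KO group also had a library at 0 or 1. With every gene kept in the fit, no change of Il23a was called (adjusted p = 0.351, 0.293 and 0.791 in CD4+, CD4- and CD8+ cells, edgeR).

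Il10 (plus strand of chromosome 1, 131019845 to 131024974), an inhibitor of inflammatory cytokine production, had 17 counts in all and 10 libraries at 0. Its counts were 0, 4 and 4 in KO CD4+ libraries and 3, 1 and 1 in WT CD4+ libraries. KO CD4- libraries had 0, 0 and 0 counts and WT CD4- libraries 2, 0 and 1, while KO CD8+ libraries had 1, 0 and 0 and WT CD8+ libraries 0, 0 and 0. A count of 0 allows up to 3 counts, or 0.152 to 0.230 CPM depending on the library (counting error only), so small differences in Il10 between genotypes were not detectable at this depth. With every gene kept in the fit, no change of Il10 was called (adjusted p = 0.861, 0.382 and 0.699 in CD4+, CD4- and CD8+ cells, edgeR).

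Tnf, the gene of the inflammatory cytokine TNF, changed in opposite directions in CD4- and CD8+ cells. Its position is chromosome 17, 35199381 to 35202007, minus strand. In CD4- cells it had 20.3, 34.4 and 47.4 CPM in KO libraries and 17.3, 13.7 and 19.9 CPM in WT libraries. All KO CD4- libraries were above all WT CD4- libraries, though KO library 1 only just, and the KO libraries were spread widely. Tnf rose by 0.995 ± 0.23 (log2, SE, adjusted p = 0.00456, edgeR's quasi-likelihood test), or 1.99-fold. In CD8+ cells, where the gene was lowest, it had 4.30, 4.25 and 2.73 CPM in KO libraries and 6.34, 7.44 and 8.92 CPM in WT libraries. These groups did not overlap, and Tnf fell by 1.01 ± 0.28 (adjusted p = 0.0227), 2.01-fold. That call was lost without KO CD8+ library 3 (adjusted p = 0.0918) or WT CD8+ library 3 (adjusted p = 0.0921). The cDC2, pDC and NK cell markers that fell in KO CD8+ cells moved the same way as Tnf, which CD4+ and CD4- cells expressed more highly, and their part in the fall was not tested. CD4+ cells had 34.2, 38.8 and 41.5 CPM in KO libraries and 48.1, 42.8 and 52.7 CPM in WT libraries. The CD4+ groups did not overlap either, but the log2 difference of -0.33 ± 0.22 was not called (adjusted p = 0.289). It was called under 1 of 16 alternative runs.

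The differences between these effects were tested directly. The KO effect on Tnf in CD4- cells exceeded that in CD8+ cells by 2.00 ± 0.37 (log2, adjusted p = 0.00157), and this difference was called under every leave-one-out fit. The effect in CD4+ cells lay below that in CD4- cells, with a difference of -1.32 ± 0.32 (adjusted p = 0.0308). This call was lost when any 1 of 9 of the 12 libraries was left out (adjusted p of 0.0527 to 0.0767), and held without KO CD4- library 1, WT CD4+ library 2 or WT CD4- library 3. Between CD4+ and CD8+ cells the difference was 0.68 ± 0.36 and was not called (adjusted p = 0.209). For the difference between CD4+ and CD8+ cells, 2 of 7 members were called higher (Il6, Il15) and 1 lower (Il18), beside 12.6% and 9.54% of all genes (22.2% in all). Between CD4- and CD8+ cells, 2 members were called higher (Tnf, Il15) and 0 lower, beside 8.26% and 4.96% (13.2% in all). Between CD4+ and CD4- cells, 0 were called higher and 1 lower, beside 2.48% and 1.28% (3.76% in all). KO CD4- libraries also held less NK and T cell marker RNA and more monocyte marker RNA than WT CD4- libraries, as given above, and the part of these cells in the Tnf difference was not tested. On the TPM scale the rise in CD4- cells was not called (log2 change 0.56, adjusted p = 0.0729, limma on log2(TPM + 1)). The RefSeq window of Tnf (chr17:35202008-35202257, minus strand, GRCm38.p6, read 5′ to 3′) is given because the gene changed in opposite directions in CD4- and CD8+ cells, and it held none of the searched letters.
Tnf: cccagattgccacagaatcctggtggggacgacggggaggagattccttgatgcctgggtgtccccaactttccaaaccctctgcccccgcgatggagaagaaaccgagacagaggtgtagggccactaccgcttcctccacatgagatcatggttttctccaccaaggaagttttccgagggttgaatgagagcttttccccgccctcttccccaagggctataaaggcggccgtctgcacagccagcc

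Il6, which encodes a cytokine of the acute phase and of T and B cell help, was scarce but higher in KO CD4+ cells. Its position is chromosome 5, 30013114 to 30019981, plus strand. Its CPM were 1.66, 4.04 and 5.52 in KO CD4+ libraries (30, 71 and 77 counts) and 1.45, 0.812 and 1.47 in WT CD4+ libraries (24, 16 and 22 counts). The groups did not overlap, but KO library 1 lay close to the WT libraries. Il6 rose by 1.59 ± 0.44 (log2, SE, adjusted p = 0.0103, edgeR's quasi-likelihood test), or 3.00-fold, and the call was lost without KO CD4+ library 3 (adjusted p = 0.0638) or WT CD4+ library 2 (adjusted p = 0.0539). CD4- cells had 1.13, 2.15 and 2.45 CPM in KO libraries and 1.03, 1.75 and 1.17 CPM in WT libraries, with overlap and no call (0.53 ± 0.45, adjusted p = 0.441). CD8+ cells had 0.717, 0.627 and 0.260 CPM in KO libraries and 1.31, 1.22 and 0.831 CPM in WT libraries. Here every KO library was below every WT library, on 4 to 11 counts in KO and 11 to 19 counts in WT libraries, and the log2 difference of -1.06 ± 0.51 was not called (adjusted p = 0.191).

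The KO effect on Il6 was higher in CD4+ than in CD8+ cells by 2.65 ± 0.67 (log2, adjusted p = 0.00893, edgeR), and this call held in all fits that left out 1 library. It was not shown to differ between CD4+ and CD4- cells (1.05 ± 0.63, adjusted p = 0.475). Between CD4- and CD8+ cells the difference was 1.59 ± 0.68 and not called (adjusted p = 0.148). Monocyte and red pulp macrophage marker RNA was higher in KO CD4+ than in WT CD4+ libraries. Its part in the rise of Il6 in CD4+ cells was not tested. The RefSeq windows of Il6 (chr5:30012864-30013113, plus strand, GRCm38.p6) and Ebi3 (chr17:55952373-55952622, plus strand) are set side by side because they were the only members among the 6 found in the promoter table (Il1b, Tnf, Il6, Il12b, Il18 and Ebi3) to hold a match, in capitals, and because Il6 was the member with a called rise in CD4+ cells while Ebi3 had no call between genotypes. Both hold an NF-kB consensus match at bases -44 to -35 from the start. Il6 also holds the AP-1 letters at -249 to -243 (TGAGTCA on the plus strand). The searched AP-1 letters are their own reverse complement, so each match on 1 strand is also a match on the other. A match is a description of letters and not a binding site.
Il6: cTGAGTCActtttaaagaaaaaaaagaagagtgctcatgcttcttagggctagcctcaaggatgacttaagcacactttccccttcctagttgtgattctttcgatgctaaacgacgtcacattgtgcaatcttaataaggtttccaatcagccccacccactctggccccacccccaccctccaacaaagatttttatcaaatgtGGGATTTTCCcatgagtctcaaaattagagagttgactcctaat
Ebi3: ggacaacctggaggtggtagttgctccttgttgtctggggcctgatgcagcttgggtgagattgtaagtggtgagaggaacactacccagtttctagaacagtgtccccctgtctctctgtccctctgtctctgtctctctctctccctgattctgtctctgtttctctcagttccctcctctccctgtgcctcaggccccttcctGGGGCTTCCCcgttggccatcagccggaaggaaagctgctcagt

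Ebi3, the chain that pairs with IL-27 p28, varied least among the tested members. Its highest group mean was 1.57 times its lowest in CPM and 1.27 times in TPM. In CD8+ cells it had 42.8, 50.4 and 47.0 CPM in KO libraries and 33.0, 37.9 and 41.5 CPM in WT libraries. These did not overlap, but the log2 difference of 0.32 ± 0.14 was not called (adjusted p = 0.134, edgeR). CD4+ cells had 31.3 to 39.9 CPM in KO and 32.3 to 42.6 CPM in WT libraries (-0.01 ± 0.14, adjusted p = 0.967), and CD4- cells 29.7 to 40.7 CPM in KO and 26.6 to 31.9 CPM in WT libraries (0.27 ± 0.14, adjusted p = 0.167). On the TPM scale KO and WT libraries of Ebi3 overlapped in every population. Il27, its p28 partner, averaged 0.149 to 0.385 TPM over the groups.

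Il1b (minus strand of chromosome 2, 129364570 to 129371139) encodes the IL-1β precursor. It had 515, 849 and 1038 CPM in KO CD4+ libraries and 1437, 1010 and 972 CPM in WT CD4+ libraries. In CD4- cells it had 446, 802 and 811 CPM in KO libraries and 879, 628 and 626 CPM in WT libraries, and in CD8+ cells 74.6, 264 and 228 CPM in KO libraries and 393, 213 and 258 CPM in WT libraries. On this scale the genotypes overlapped in each population, and the log2 differences of -0.51 ± 0.38, -0.05 ± 0.38 and -0.61 ± 0.38 (SE) in CD4+, CD4- and CD8+ cells were not called (adjusted p = 0.329, 0.942 and 0.329, edgeR). On the TPM scale the CD4- genotypes did not overlap, with 290 to 547 TPM in KO and 564 to 669 TPM in WT libraries. The extremes of CPM shared a library number. KO library 1 was the lowest KO library and WT library 1 the highest WT library in all 3 populations.

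The summed level of 12 immediate early genes (Fos, Jun, Egr1 and others, which are induced within minutes by stimuli that include tissue handling) was lowest in the same KO libraries. It was 1009 TPM in KO CD4+ library 1 against 1355 and 1353 TPM in the other KO CD4+ libraries, 754.9 TPM in KO CD4- library 1 against 1044 and 1019 TPM, and 260.3 TPM in KO CD8+ library 1 against 547 and 385.1 TPM. Among WT libraries, library 1 had the highest sum in CD4+ cells (1551 TPM), was level with library 3 in CD8+ cells (571.9 and 571.5 TPM), and was below library 3 in CD4- cells. Whether this bears on Il1b was not tested. Without the 3 KO libraries numbered 1, no difference of Il1b between KO and WT was called in any population.

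Il15 encodes a survival factor of NK cells and memory CD8+ T cells (chromosome 8, 82331632 to 82403222, minus strand). It had 6.82, 8.90 and 6.82 CPM in KO CD4- libraries and 3.26, 4.61 and 3.50 CPM in WT CD4- libraries. All KO CD4- libraries were above all WT CD4- libraries, and Il15 rose by 0.99 ± 0.20 (log2, SE, adjusted p = 0.00136, edgeR's quasi-likelihood test), or 1.99-fold. KO CD4- libraries also held less NK and T cell marker RNA and more monocyte and pan-cDC marker RNA, as given above. The part of these shifts in the rise of Il15 was not tested. CD4+ cells had 6.58, 5.41 and 6.52 CPM in KO libraries and 4.41, 5.43 and 3.07 CPM in WT libraries. One KO library overlapped the WT range by a small margin, and the difference of 0.51 ± 0.19 fell just short of a call (adjusted p = 0.0521), although it was called without KO CD4+ library 2 (adjusted p = 0.0459) or WT CD4+ library 2 (adjusted p = 0.0150). CD8+ cells had 12.5, 9.90 and 9.42 CPM in KO libraries and 15.2, 14.2 and 13.8 CPM in WT libraries. Here the KO libraries were all below the WT libraries, with a difference of -0.44 ± 0.18 that was not called (adjusted p = 0.120). The KO effect itself differed between populations, being higher in CD4+ than in CD8+ cells by 0.95 ± 0.27 (adjusted p = 0.0160) and higher in CD4- than in CD8+ cells by 1.43 ± 0.27 (adjusted p = 0.00187). Both of these differences use the same CD8+ libraries.

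For Il15 the scale decided the call. On log2(TPM + 1) the difference in CD4- cells was 0.06 (adjusted p = 0.947, limma), and KO CD4- library 3 had 4.83 TPM beside 32.7 and 32.2 TPM in the other KO CD4- libraries and 12.5, 19.3 and 20.03 TPM in WT CD4- libraries. Its count of 89 lay near the 115 and 116 of the other KO CD4- libraries. Il15 has 10 annotated transcripts in the tables, and the short processed transcript Il15-207 (234 bases, 3 exons) held a median of 7.55% of the gene's counts but 58.7% of its TPM. In KO CD4- library 3 that transcript had 0 counts, and in KO CD4- libraries 1 and 2 it had 12.9 and 7.42 estimated counts, which stood for 21.8 and 16.1 TPM. The longer coding transcript Il15-202 (1251 bases, 8 exons) held a median of 36.2% of the counts and 5.59% of the TPM. Il1b showed a smaller shift of the same kind, with 7.87% of its counts and 38.6% of its TPM in the processed transcript Il1b-202 (379 bases). Levels of both genes per length thus depend on the reads assigned to short non-coding forms, as the plot of transcript shares shows. The differences of the KO effect on Il15 were not called on log2(TPM + 1) either (adjusted p = 0.278 for CD4+ and 0.621 for CD4- cells, each relative to CD8+ cells).

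**Figure D3:**
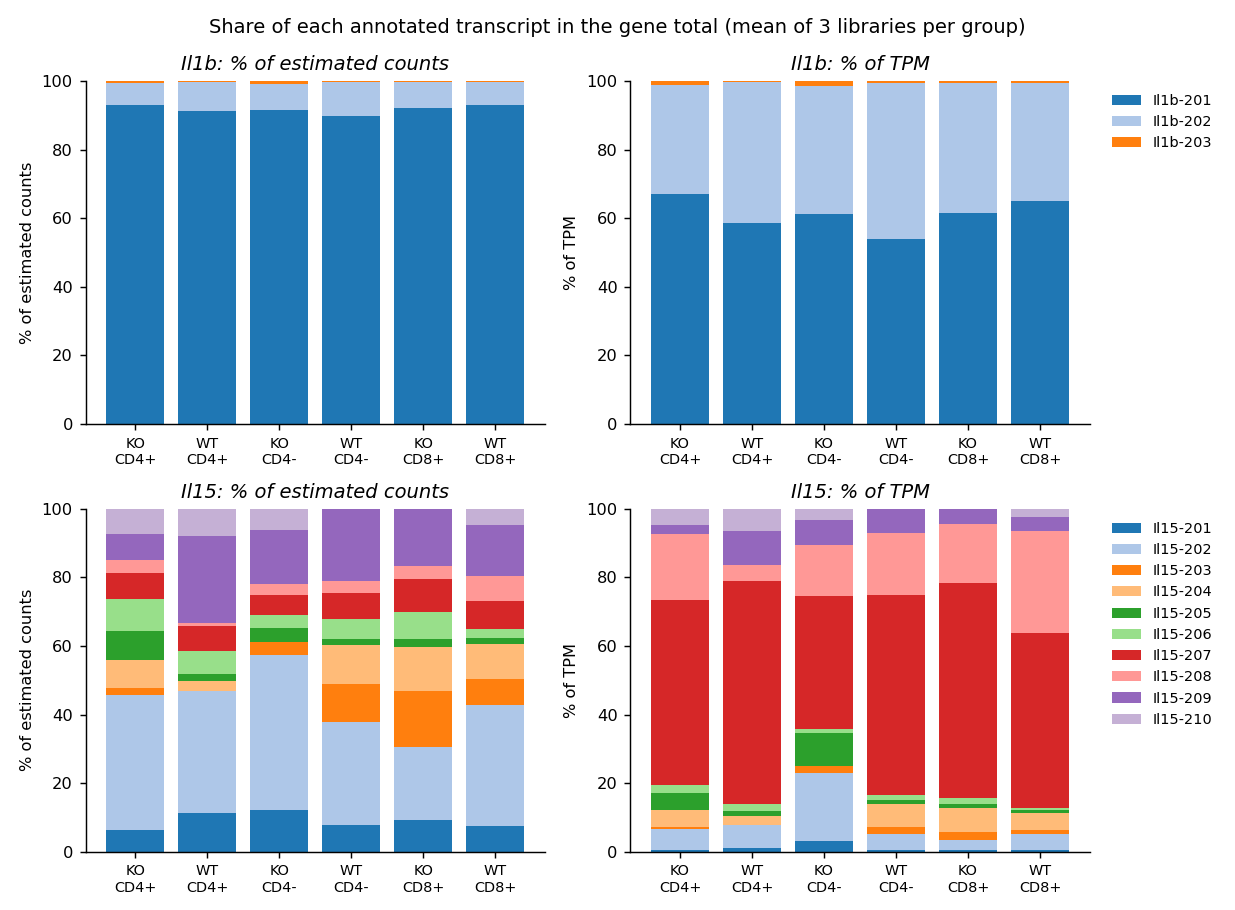
Mean share of each annotated transcript in the gene total of Il1b (upper row) and Il15 (lower row), as percent of estimated counts (left) and percent of TPM (right), in 6 groups of 3 libraries. Il15-207, a form of 234 bases, takes a narrow band of the counts (median 7.55%) and the widest band of the TPM in each group (median 58.7%).

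Il18, the gene of the interferon-γ-inducing cytokine IL-18, was highest in KO CD8+ cells. Its position is chromosome 9, 50554827 to 50581840, plus strand. It had 29.8, 30.7 and 30.9 CPM in KO CD8+ libraries and 19.2, 22.4 and 21.8 CPM in WT CD8+ libraries. The groups were far apart and tight, and Il18 rose by 0.53 ± 0.13 (log2, SE, adjusted p = 0.0119, edgeR's quasi-likelihood test), or 1.44-fold, a call that was lost without WT CD8+ library 1 (adjusted p = 0.0622). KO CD8+ libraries also held less cDC2, pDC, NK and B cell marker RNA, as given above. Its part in this rise of Il18 was not tested. CD4- cells had 14.7, 14.3 and 13.0 CPM in KO libraries and 8.10, 12.6 and 8.93 CPM in WT libraries. These did not overlap, and the rise of 0.51 ± 0.14 (adjusted p = 0.0128) was no longer called without WT CD4- library 1 (adjusted p = 0.0890) or WT CD4- library 3 (adjusted p = 0.0771). NK, T cell, monocyte and pan-cDC marker RNA differed between KO and WT CD4- libraries, as given above. The part of these shifts in the rise of Il18 was not tested. CD4+ cells had 17.0, 14.6 and 18.3 CPM in KO libraries and 16.3, 19.4 and 16.8 CPM in WT libraries, with overlap and a difference of -0.08 ± 0.14 (adjusted p = 0.713). The KO effect was lower in CD4+ than in CD8+ cells by 0.60 (log2 difference -0.60 ± 0.19, adjusted p = 0.0303), a call lost without any of KO CD4+ library 2, WT CD4+ library 2, KO CD8+ library 2 or WT CD8+ library 1 (adjusted p = 0.0765, 0.0864, 0.0561 and 0.0761). Against CD4- cells the KO effect in CD4+ cells was -0.59 ± 0.20 (adjusted p = 0.125), which was called without WT CD4- library 2 (adjusted p = 0.0116). This difference was also called with a replicate block within genotype. On log2(TPM + 1) the rise was not called in CD8+ (log2 change 0.42, adjusted p = 0.0701) or CD4- cells (0.21, adjusted p = 0.292, limma). Il18 overlaps Bco2 and Tex12 on the other strand. The labels do not say whether reads were counted by strand, and these neighbours had at most 2.93 and 0.308 TPM in any library. Among the other members, Il1b is overlapped by the antisense gene Il1bos and Ebi3 by the antisense gene Gm16712. Neither antisense gene had a TPM value.

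Il1b, Tnf, Il12b and Il15 differed between each cDC2 population and CD8+ cells in both genotypes. In KO cells, 3 of the 7 tested members were higher and 4 lower in CD4+ than in CD8+ cells, beside 25.8% and 25.1% of all genes (50.9% in all). In KO CD4- relative to KO CD8+ cells 3 were also higher and 4 lower, beside 24.4% and 22.3% (46.7% in all). In KO CD4+ relative to KO CD4- cells 0 of 7 were called by edgeR or DESeq2, beside 3.17% higher and 4.78% lower (7.95% in all), and 1 (Il6) had an unadjusted p under 0.05. In WT cells, 2 members were higher and 2 lower in CD4+ than in CD8+ cells, beside 22.6% and 23.0% (45.7% in all). In WT CD4- relative to WT CD8+ cells 2 were higher and 3 lower, beside 21.9% and 21.0% (42.9% in all). In WT CD4+ relative to WT CD4- cells 2 were higher (Tnf and Il18) and 0 lower, beside 7.12% and 9.64% (16.8% in all). The counts of this paragraph are from fits without a replicate block. With a block within genotype, edgeR also called Il1b between WT CD4+ and CD4- cells (adjusted p = 0.00725). It likewise called Il18 between WT CD4+ and CD8+ cells (adjusted p = 0.0487) and Ebi3 between WT CD4- and CD8+ cells (adjusted p = 0.0278). The CD4+ and CD4- comparisons with CD8+ cells share their CD8+ libraries.

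Il12b marked CD8+ cells. It was lower in CD4+ than in CD8+ cells by a log2 difference of -3.51 ± 0.30 in KO and -3.35 ± 0.27 in WT (SE), and in CD4- than in CD8+ cells by -2.91 ± 0.29 in KO and -3.40 ± 0.28 in WT (adjusted p of 3.7e-07 or lower in edgeR). Il15 went the same way, with differences between CD4+ and CD8+ cells of -0.78 ± 0.19 in KO and -1.73 ± 0.19 in WT (adjusted p = 0.00215 and 1.19e-06), and between CD4- and CD8+ cells of -0.50 ± 0.19 in KO and -1.93 ± 0.20 in WT (adjusted p = 0.0368 and 5.86e-07). The KO value for CD4- cells was lost without any of KO CD4- library 1, KO CD4- library 3 or KO CD8+ library 1 (adjusted p = 0.117, 0.117 and 0.165).

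Il1b and Tnf were higher in cDC2. Il1b was higher in CD4+ than in CD8+ cells by 2.09 ± 0.39 in KO and 1.98 ± 0.39 in WT, and in CD4- than in CD8+ cells by 1.86 ± 0.39 in KO and 1.30 ± 0.38 in WT (adjusted p = 0.000282, 0.000508, 0.000849 and 0.0113). The last of these was lost without WT CD8+ library 2 (adjusted p = 0.0518). For Tnf the differences between CD4+ and CD8+ cells were 3.34 ± 0.27 in KO and 2.66 ± 0.25 in WT, and between CD4- and CD8+ cells 3.17 ± 0.27 in KO and 1.17 ± 0.25 in WT. In WT cells Tnf was also higher in CD4+ than in CD4- cells by 1.49 ± 0.23 (adjusted p = 0.000274), while the value in KO cells was 0.17 ± 0.23 (adjusted p = 0.743).

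Il6 separated cDC2 from CD8+ cells in KO libraries, with 2.78 ± 0.49 between CD4+ and CD8+ cells and 1.81 ± 0.49 between CD4- and CD8+ cells (adjusted p = 0.000139 and 0.00633), and was not called in WT (0.14 ± 0.47 and 0.22 ± 0.47). The KO CD8+ libraries held only 11, 9 and 4 counts of Il6, and their mean of 0.368 TPM was near zero. Il18 was lower in CD4- than in CD8+ cells by -1.12 ± 0.14 in KO and -1.10 ± 0.14 in WT on the log2 scale. Ebi3 was lower in KO CD4+ than in KO CD8+ cells by -0.35 ± 0.14 (adjusted p = 0.0391), which was lost without any of KO CD4+ library 2, KO CD8+ library 2 or KO CD8+ library 3 (adjusted p = 0.167, 0.129 and 0.0739). It was also lower in KO CD4- than in KO CD8+ cells by -0.38 ± 0.14 (adjusted p = 0.0300), which was lost without any of KO CD4- library 1, KO CD8+ library 2 or KO CD8+ library 3 (adjusted p = 0.152, 0.104 and 0.0581).

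**Figure D4:**
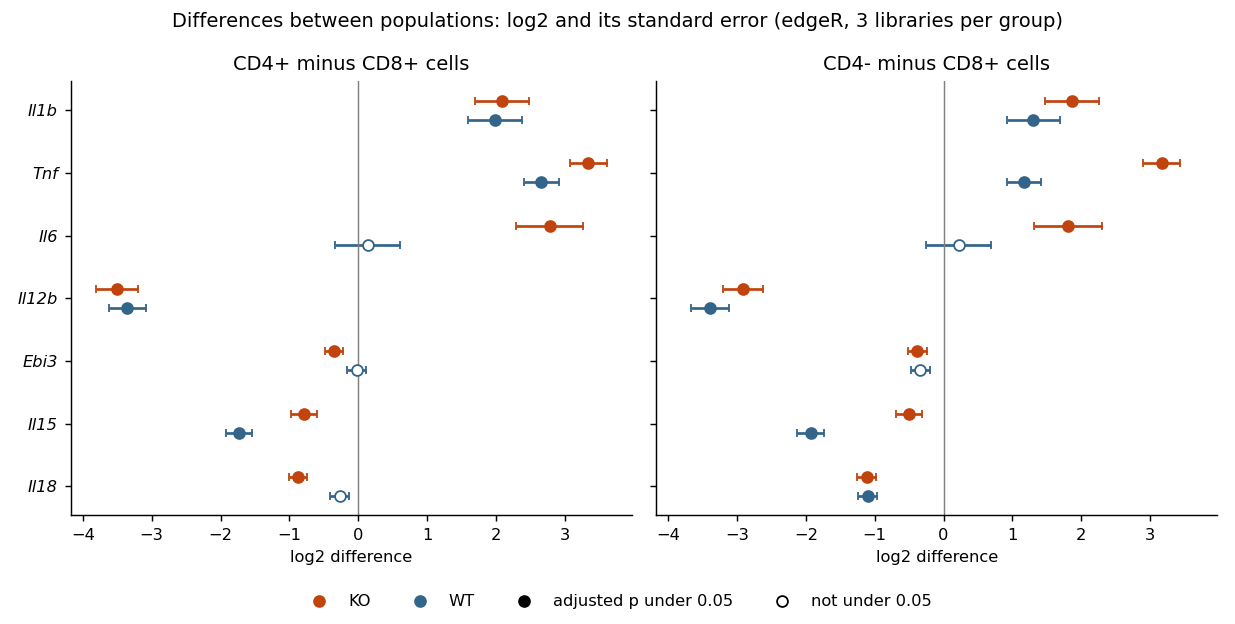
Log2 differences between CD4+ and CD8+ cells (left) and between CD4- and CD8+ cells (right) for the 7 tested genes, in KO cells (upper point of each pair) and WT cells (lower point), with standard errors (edgeR, 3 libraries per group) and filled where the adjusted p was under 0.05. Il12b lies near -3 in both genotypes, and the KO point of Tnf for CD4- cells (3.17) lies well right of the WT point (1.17).

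Pearson's r of log2 CPM over all 18 libraries is given as a description, since the libraries share populations and genotypes. It was 0.863 for Il1b and Tnf, 0.823 for Il18 and Ebi3, 0.706 for Il15 and Il18, 0.705 for Il12b and Il15, and 0.704 for Tnf and Il6. Tnf and Il12b ran opposite (r = -0.789). Among 9800 genes with at least 5 CPM on average, the gene most like each member was Fosl2 for Il1b (r = 0.971), Ccrl2 for Tnf (r = 0.966), Stxbp3 for Il6 (r = 0.869), Arhgap22 for Il12b (r = 0.975), Plekhb2 for Il15 (r = 0.975), Vrk2 for Il18 (r = 0.950) and Cd180 for Ebi3 (r = 0.838).

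Genes around the cytokines were counted from lists. Of 12 genes for the processing and release of these cytokines, 7 rose and 1 fell in KO CD4+ cells, 4 rose in KO CD4- cells, and 1 rose and 3 fell in KO CD8+ cells, relative to WT. Of all genes, 18.5% rose and 16.6% fell in CD4+ cells, 14.6% rose and 11.4% fell in CD4- cells, and 7.06% rose and 8.71% fell in CD8+ cells. The list's median log2 change was 0.35, 0.30 and -0.16. P2rx7, the ATP receptor that triggers release of IL-1β, rose in all 3 populations, by 1.27 ± 0.11, 0.72 ± 0.11 and 0.39 ± 0.11 (log2, SE, adjusted p = 1.2e-07, 0.000125 and 0.0179, edgeR). Adam17, the TNF-releasing protease, rose by 0.46 ± 0.08 in CD4+ and 0.30 ± 0.08 in CD4- cells, and Rhbdf1, a cofactor of ADAM17, by 2.36 ± 0.38 and 1.90 ± 0.35. Rhbdf2, another ADAM17 cofactor, fell by 0.67 ± 0.13 in CD8+ cells.

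Of 17 tested receptor chains for the 9 cytokines, 10 rose and 3 fell in KO CD4+ cells, 4 rose and 5 fell in KO CD4- cells, and 1 rose and 8 fell in KO CD8+ cells. These counts stand beside 18.5% of all genes higher and 16.6% lower in CD4+ cells, 14.6% and 11.4% in CD4- cells, and 7.06% and 8.71% in CD8+ cells. The median log2 change of the chains was 0.51, 0.01 and -0.49. Il12rb2, a chain of the IL-12 receptor, fell by 2.02 ± 0.20 in CD4+ and 1.36 ± 0.19 in CD4- cells, and Il1r2, the decoy receptor for IL-1, by 2.90 ± 0.29 and 1.57 ± 0.29. In CD4- cells Il2rb, which NK and T cells also use, fell by 2.65 ± 0.41 together with the NK and T cell markers given above, and their part in it was not tested. In CD8+ cells Il2rg, the chain shared by the IL-2 and IL-15 receptors, fell by 1.26 ± 0.09 and Tnfrsf1b, a TNF receptor, by 1.03 ± 0.14. Among 5 tested partner chains and antagonists, Clcf1, an IL-6 family cytokine, fell in CD4+ (0.48 ± 0.16) and CD4- cells (0.70 ± 0.16).

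Of 12 NF-kB factors and feedback genes, 3 rose and 4 fell in KO CD4+ cells, 2 rose and 1 fell in KO CD4- cells, and 8 fell in KO CD8+ cells. The genes called in all, 7, 3 and 8 of 12, stand beside 35.1%, 26.0% and 15.8% of all genes, and the 8 lower in CD8+ cells beside 8.71%. The share in CD4- cells is near that of all genes. Their median log2 change was 0.03, 0.04 and -0.64. Relb, a subunit of NF-kB, fell in all 3 populations by 1.11 ± 0.14, 0.90 ± 0.14 and 1.19 ± 0.14 (log2, SE, adjusted p = 7.02e-06, 0.000131 and 1.47e-05, edgeR). Nfkbia, which encodes the inhibitor IκBα, rose in CD4+ and CD4- cells by 0.86 ± 0.13 and 0.74 ± 0.13, and Nfkbiz, a nuclear cofactor needed for Il6 induction in macrophages, by 1.80 ± 0.28 and 1.21 ± 0.27. In CD8+ cells Nfkbia had a log2 change of -0.14 ± 0.13 (adjusted p = 0.553) and Nfkbiz of -0.66 ± 0.32 (adjusted p = 0.200). The KO effect on Nfkbiz in CD4+ cells exceeded that in CD8+ cells by 2.46 ± 0.42 (adjusted p = 0.000449), and in CD4- cells by 1.86 ± 0.42 (adjusted p = 0.00729).

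**Figure D5:**
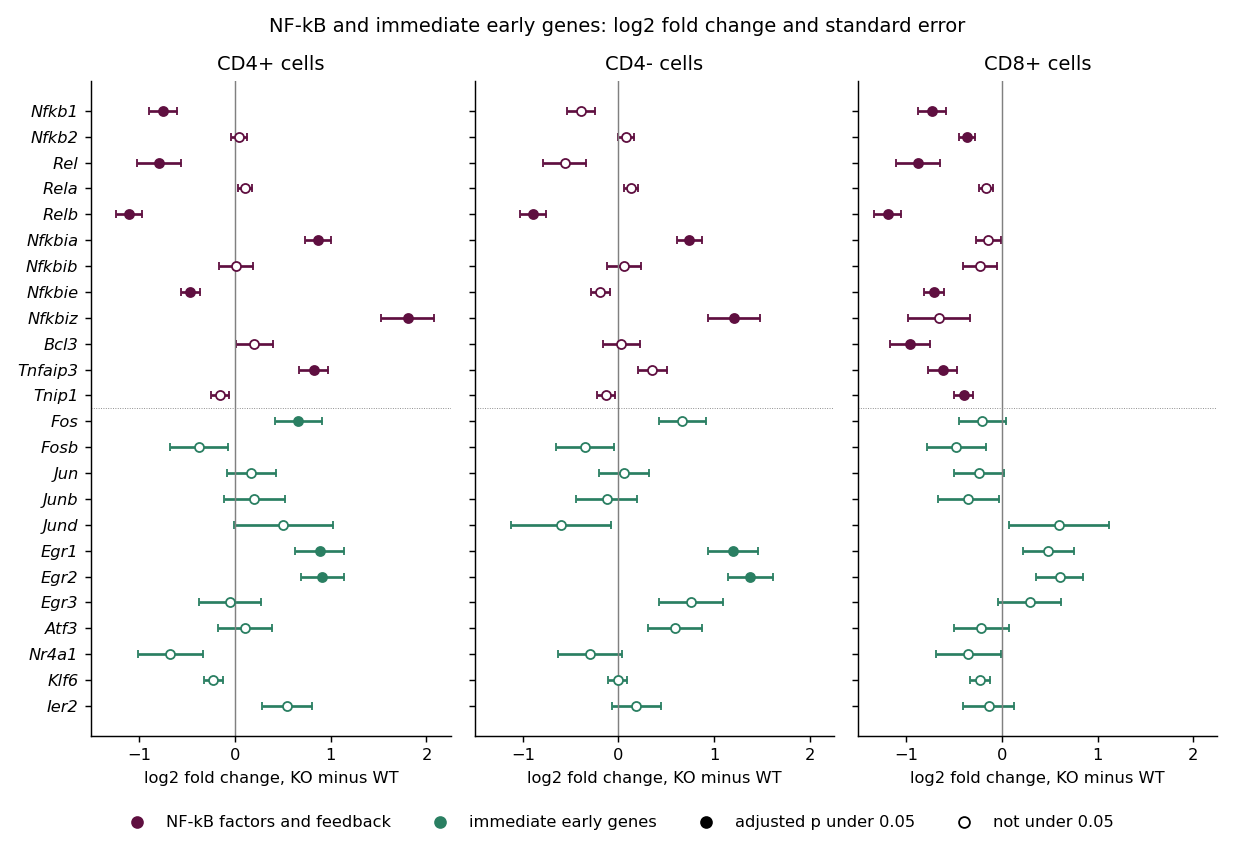
Log2 fold change of KO over WT cells for 12 NF-kB factors and feedback genes (above the dotted line) and 12 immediate early genes (below it) in each population, with standard errors (edgeR, 3 libraries per group) and filled where the adjusted p was under 0.05. Relb lies left of 0 in every panel, and Nfkbiz lies right of 0 in CD4+ (1.80) and CD4- cells (1.21).

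Of the 12 immediate early genes, 3 rose in KO CD4+ cells (Egr2, Egr1 and Fos, by 0.91 ± 0.23, 0.88 ± 0.26 and 0.66 ± 0.25) and 2 in KO CD4- cells (Egr2 and Egr1, by 1.38 ± 0.23 and 1.20 ± 0.26), and 0 were called in KO CD8+ cells (2 at an unadjusted p under 0.05, edgeR). The shares that rose in CD4+ and CD4- cells are near the 18.5% and 14.6% of all genes, so they say nothing of the list as a whole. Of 8 genes of transcript decay and MAP kinase feedback, 1 rose in KO CD4+ cells, 2 rose in KO CD4- cells and 2 fell in KO CD8+ cells, beside 35.1%, 26.0% and 15.8% of all genes called. Zc3h12a, whose product degrades Il6 and Il12b RNA, rose in CD4+ (1.09 ± 0.24) and CD4- cells (0.69 ± 0.23). The MAP kinase phosphatase gene Dusp2 fell by 1.22 ± 0.28 and Zfp36l1, whose product binds AU-rich RNA, by 0.59 ± 0.18 in CD8+ cells, and Zfp36, a relative of Zfp36l1 that destabilises Tnf RNA, rose by 0.69 ± 0.22 in CD4- cells. Of 10 transcription factors of cytokine genes, 3 rose and 1 fell in KO CD4+ cells, 1 rose and 2 fell in KO CD4- cells, and 1 rose and 2 fell in KO CD8+ cells, and the counts in CD4+ and CD4- cells are near the 35.1% and 26.0% of all genes called (15.8% in CD8+ cells). Stat3 fell in all 3 populations by 0.29 ± 0.08, 0.38 ± 0.08 and 0.50 ± 0.08 in CD4+, CD4- and CD8+ cells. Irf8, a factor of Il12b transcription, rose in CD4+ (0.65 ± 0.15) and CD4- cells (0.55 ± 0.14), and had a log2 change of 0.35 ± 0.14 in CD8+ cells (adjusted p = 0.116). Irf4 fell by 2.36 ± 0.19 in CD8+ cells and is itself among the 6 cDC2 markers summed above. Maf, a factor that can repress Il12b in macrophages, rose in CD4+ cells (1.36 ± 0.25) and fell in CD4- cells (0.78 ± 0.26).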

How the data were processed

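The deposited tables hold expected counts (estimated counts per transcript, 117135 transcripts) and TPM (84086 transcripts), both made by the authors. Per the submitters' processing notes, FastQC 0.11.8, Salmon 0.14.1 and the build GRCm38 were used, and per the labels' protocols poly(A) RNA was sequenced as single-end reads. Transcripts were summed per gene name (positions and transcript types from GENCODE M21), 37 missing names were filled from that annotation, 115 transcripts (at most 0.16% of a library's counts) were left out, and sums were rounded. Genes were filtered with filterByExpr and TMM-scaled in edgeR 4.0.16 (R 4.3.3). Its quasi-likelihood test was fitted with 1 mean per group to all 18 libraries (12 residual degrees of freedom), two-sided, with Benjamini-Hochberg adjustment over 13369 genes. The script was tested on simulated data. There were 12 comparisons. Alternatives were DESeq2 1.42.0, limma 3.58.1 on log2(TPM + 1) and log2(TPM + 0.1), other scalings, no filter, replicate blocks, fewer groups and leaving out libraries. The members and lists were chosen with earlier results of these data known. The genes named are the members, the gene most like each (highest Pearson's r, mean of at least 5 CPM), and up to 3 called genes of each list and comparison with the smallest p. Replicate libraries differed by more than counting error (chi-square per gene of 9.12 to 30.6 over 18 pairs). Salmon divides reads among similar transcripts, which can move values between the forms of a gene.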

Additional observations from a re-analysis of the deposited data

Results flagged for a closer look

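Each of the following 6 results stood out because the effect of ADAM10 loss differed between a pair of populations by a test of the difference itself (edgeR's quasi-likelihood test, adjusted p under 0.05). For Il15, the KO effect in CD4+ cells exceeded that in CD8+ cells by 0.95 on the log2 scale. The KO effect on Il18 in CD4+ cells relative to CD8+ cells was -0.60. The KO effect on Il6 in CD4+ cells exceeded that in CD8+ cells by 2.65. In CD4- cells the KO effect exceeded that in CD8+ cells by 1.43 for Il15 and by 2.00 for Tnf. The KO effect on Tnf in CD4+ cells relative to CD4- cells was -1.32. Of all genes, 22.2% were called for CD4+ and CD8+ cells, 13.2% for CD4- and CD8+ cells and 3.76% for CD4+ and CD4- cells. In the order given, the calls of the 6 results were lost in 3, 8, 0, 2, 0 and 13 of 23 alternative runs. Neither Il15 difference was called on log2(TPM + 1).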

How the results depend on the processing

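Of 1533 alternative values for the 84 results of single members, 1377 kept the direction and the side of the threshold, 78 lost a call, 17 gained one and 61 changed sign. The 61 belong to 20 of the 44 results that were not called, and none of the 61 was itself called. Of 40 calls, 24 held under every alternative run, among them the falls of Il12b in CD4+ and CD8+ cells. The number of members called between KO and WT CD4- cells (4) was 2 with only the compared groups in the fit, 1 on log2(TPM + 1), 1 on log2(TPM + 0.1) and 2 without the 3 KO libraries numbered 1, an alternative added after seeing the data. For the difference of the KO effect between CD4+ and CD8+ cells (3) it was 1 on either TPM scale and 1 without the 3 WT libraries numbered 3, also added later. Between CD4- and CD8+ cells (2) it was 1 on either TPM scale. Between CD4+ and CD4- cells (1) it was 2 with a replicate block within genotype (Il18 gained, log2 difference -0.60, adjusted p = 0.0381), and 0 with only the compared groups, on either TPM scale and without the 3 WT libraries numbered 3. With only the compared groups, Il12b (adjusted p = 0.101) and Il18 (adjusted p = 0.0741) in CD4- cells lost their calls. Leaving out 1 library at a time gave 1 to 3 members called in CD4+, 3 to 4 in CD4- and 2 to 3 in CD8+ cells for KO against WT. For the differences of the KO effect it gave 2 to 3 (CD4+ and CD8+), 2 to 3 (CD4- and CD8+) and 0 to 1 (CD4+ and CD4-). The Tnf difference between CD4+ and CD4- cells then had adjusted p values of up to 0.0767. Without scaling beyond the library total, the median of all genes between KO and WT moved to -0.11, -0.19 and -0.12 in CD4+, CD4- and CD8+ cells, Il18 in CD4- cells was no longer called (adjusted p = 0.111) and Il15 in CD8+ cells was (log2 change -0.57, adjusted p = 0.0339). The library numbers did not pair the samples across genotypes (deviations of same-numbered KO and WT libraries correlated at -0.05 to 0.14, with 2 of 9 pairs over 0.1). Within genotypes all 18 same-numbered pairs correlated best with their own number (0.05 to 0.26), with 12 over 0.1. With the replicate block Il15 in CD4+ cells was called (log2 change 0.53, adjusted p = 0.0379). The within-genotype block also called Il1b (0.68, adjusted p = 0.00725) between WT CD4+ and CD4- cells, Il18 (-0.27, adjusted p = 0.0487) between WT CD4+ and CD8+ cells and Ebi3 (-0.33, adjusted p = 0.0278) between WT CD4- and CD8+ cells. Il10 and Il23a were near zero in all groups at thresholds of 0.5 and 2 TPM too. At 0.5 TPM Il6 was near zero only in KO CD8+ cells and Il12b in no group, and at 2 TPM Il6 was near zero in 5 groups, Il12b in 2 and Tnf in 1 (KO CD8+ cells). The low counts of Il6, Il10 and Il23a limit what could be seen of them at this depth. The sign changes were these, all in log2 units. On log2(TPM + 1) and log2(TPM + 0.1), KO minus WT in CD4- cells was -0.080 and -0.13 for Il6 and -0.054 and -0.057 for Ebi3, the KO effect in CD4+ relative to CD8+ cells was 0.56 and 0.027 for Il12b, and that in CD4+ relative to CD4- cells was 0.60 and 0.67 for Il15. On the same scales CD4+ minus CD4- cells was 0.30 and 0.35 for Il15 and -0.054 and -0.058 for Ebi3 in KO, and -0.30 and -0.32 for Il15 and -0.070 and -0.070 for Il12b in WT, and CD4+ minus CD8+ cells in WT was 0.0085 and 0.0088 for Ebi3. Without scaling, CD4+ minus CD4- cells was -0.012 for Ebi3 in KO and -0.081 for Il12b in WT. Without the 3 KO libraries numbered 1, Il1b was 0.14 for KO minus WT in CD4- cells and -0.044 for the KO effect in CD4+ relative to CD8+ cells, and CD4+ minus CD4- cells in KO was -0.026 for Tnf and -0.14 for Ebi3. Without the 3 WT libraries numbered 3, CD4+ minus CD8+ cells in WT was -0.16 for Il6 and 0.090 for Ebi3, and CD4+ minus CD4- cells in WT was -0.041 for Il12b. Leaving out 1 library at a time, KO minus WT ranged from -0.15 to 0.0092 for Il18 and -0.098 to 0.11 for Ebi3 in CD4+ cells and -0.19 to 0.18 for Il1b in CD4- cells. The KO effect relative to CD8+ cells ranged from -0.28 to 0.42 for Il1b in CD4+ cells, and from -0.15 to 0.077 for Ebi3 and -0.16 to 0.18 for Il18 in CD4- cells. CD4+ minus CD4- cells ranged from -0.094 to 0.13 for Ebi3, -0.010 to 0.46 for Il1b and -0.10 to 0.48 for Tnf in KO, and from -0.17 to 0.54 for Il12b, -0.24 to 0.17 for Il6 and -0.0087 to 0.39 for Il15 in WT. In WT cells CD4+ minus CD8+ ranged from -0.14 to 0.065 for Ebi3 and -0.032 to 0.38 for Il6, and CD4- minus CD8+ from -0.013 to 0.40 for Il6.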
